A study of Mus musculus with 2 samples.

Results

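Astrocytes clear glutamate, water and ions from the space around neurons, and 8 genes that carry out this work were followed in single-nucleus RNA sequencing (snRNA-seq) of irradiated and mock-irradiated mouse brain. They are the glutamate transporters Slc1a2 and Slc1a3, glutamine synthetase (Glul), the water channel Aqp4, the gap junction connexins Gja1 and Gjb6, the sodium bicarbonate cotransporter Slc4a4 and the Na,K-ATPase subunit Atp1b2. They were chosen by their known roles, were found by gene symbol, and make up 8 of the 27998 genes in the count matrices. The brains came from mice labelled C57BL/6 (C57BL/6J females aged 4 to 6 weeks at purchase, per the study's animal section) and were frozen whole, and the nuclei of 2 mice were pooled in each library. In the WBRT-28d library the whole brain had received 10 Gy in 5 fractions of 2 Gy, and it was taken 28 days after treatment. The ShamRT-28d library is named mock-irradiated in the study and untreated in the labels, and was taken at the same time. Both libraries thus hold wild-type mice of 1 strain, and no nucleus is tied to a mouse.

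Glutamate released at synapses is taken up by astrocytes through sodium-coupled carriers, is joined with ammonia to glutamine by glutamine synthetase, and returns to neurons in that form. The sodium that enters is pumped out again by the Na,K-ATPase, and bicarbonate moved with sodium buffers the pH. Water crosses the membrane through aquaporins that are packed in the endfeet around blood vessels, and connexins join neighbouring astrocytes into a network through which potassium and metabolites spread.

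The matrices held 11469 barcodes with 45511469 unique molecular identifiers (UMIs, each a captured RNA molecule) in ShamRT-28d and 15986 barcodes with 68423922 UMIs in WBRT-28d. After filters on detected genes, mitochondrial UMIs and doublets, 10051 and 13718 nuclei were kept, and 43 barcode sequences occurred in both libraries. Nuclei were called astrocyte-like from 19 marker genes, among them none of the 8 genes, which gave 666 nuclei in ShamRT-28d (6.63% of those kept) and 1369 in WBRT-28d (9.98%). Their median depth was 2362 and 2650 UMIs. The summed astrocyte markers stood at 19345 CPM (UMIs per 1000000 UMIs of the summed nuclei) in ShamRT-28d and 20593 CPM in WBRT-28d. Microglia markers stood at 248 and 247 CPM, and those of oligodendrocyte progenitor cells (OPCs) at 209 and 305 CPM. Oligodendrocyte markers were higher than both, at 715 CPM in ShamRT-28d and 858 CPM in WBRT-28d. Of the astrocyte marker sums, Gpc5 alone supplied 9580 CPM in ShamRT-28d and 11674 CPM in WBRT-28d. Single markers differed more between the libraries, from 0.684 times the ShamRT-28d level in WBRT-28d for Pla2g7 to 2.00 times for Etnppl. Rgs20 (0.770), Phkg1 (0.776) and Bmpr1b (0.804) were also lower in WBRT-28d, and Prex2 (1.09) and Gpc5 (1.22) higher. Neuron genes, used here to estimate RNA set free in the suspension, differed too. The 8 of them stood at 14.1% of their library level in the astrocyte-like nuclei of ShamRT-28d and at 24.2% in those of WBRT-28d. Whether this was free RNA alone was not tested.

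With 1 library per condition, no test between conditions can be made. Every value below is given per library, with exact 95% intervals (Poisson for CPM, binomial for shares and ratios) that cover counting error only and not the spread between mice. Irradiation, the pool of mice and the preparation of a library cannot be told apart.

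In astrocyte-like nuclei, the glutamate transporter Slc1a2 had the highest level per length of the 8 genes, and the bicarbonate cotransporter Slc4a4 the lowest. The reference took in intronic reads, so a longer gene can collect more UMIs, and levels were compared between genes per kilobase (kb) of gene. Whether UMIs rise in proportion to length was not tested, and the order rests on this scaling. Without it Slc4a4, at 1854 CPM in ShamRT-28d and 1899 CPM in WBRT-28d, stood below Slc1a2 and Slc1a3 only. Slc1a2 spans 132 kb of chromosome 2 (chr2:102658659-102790784, plus strand, mm10), of which 9.94% is exonic. Its level was 44.2 CPM per kb (43.4–45.1) in ShamRT-28d and 41.8 CPM per kb (41.3–42.4) in WBRT-28d. Glul, which at 9.78 kb (chr1:153899944-153909723, plus strand) is much shorter, followed at 42.4 CPM per kb (39.4–45.6) and 39.2 CPM per kb (37.3–41.2). The intervals of these neighbours overlapped in ShamRT-28d and narrowly did not in WBRT-28d. Atp1b2, the shortest gene at 6.21 kb (chr11:69599736-69605942, minus strand), reached 32.9 and 28.0 CPM per kb, and its interval overlapped that of Slc1a3 in both libraries. Slc1a3 lies on the minus strand of chromosome 15 (chr15:8634124-8710764, 76.6 kb) and stood at 29.3 and 26.9 CPM per kb. The water channel Aqp4 (21.5 kb, chromosome 18) and the connexin Gja1 (25.2 kb, chr10:56377330-56402513, plus strand) came next, at 16.8 and 15.7 CPM per kb in ShamRT-28d, where their intervals overlapped, and at 13.0 and 10.7 CPM per kb in WBRT-28d, where they did not. Gjb6 (10.3 kb, chr14:57123303-57133611, minus strand) stood at 8.84 and 7.61 CPM per kb. Slc4a4, the longest gene at 353 kb with an exonic share of 3.07% (chr5:88886818-89239653, plus strand), came last at 5.26 and 5.38 CPM per kb. The order of the 8 genes per kb was the same in both libraries.

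Together the 8 genes supplied 1.14% of all UMIs of astrocyte-like nuclei in ShamRT-28d and 1.07% in WBRT-28d, against 0.0647% and 0.0840% in microglia-like nuclei. The median astrocyte-like nucleus held a UMI of 5 of the 8 genes in either library, and the median microglia-like nucleus of 1. At least 6 of the 8 genes were detected in 36.2% of the astrocyte-like nuclei of ShamRT-28d and 33.2% of those of WBRT-28d. All 8 were seen in 11 nuclei of the former library and 26 of the latter.

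For 7 of the 8 genes, astrocyte-like nuclei had the highest level of the 11 marker-gated types in both libraries. Gjb6 was the exception and was highest in fibroblast-like nuclei. None of the 8 genes belonged to a marker list, but they were chosen for known roles in astrocytes, which favours this order. The share of all genes that are highest in astrocyte-like nuclei was not counted.

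**Figure D1:**
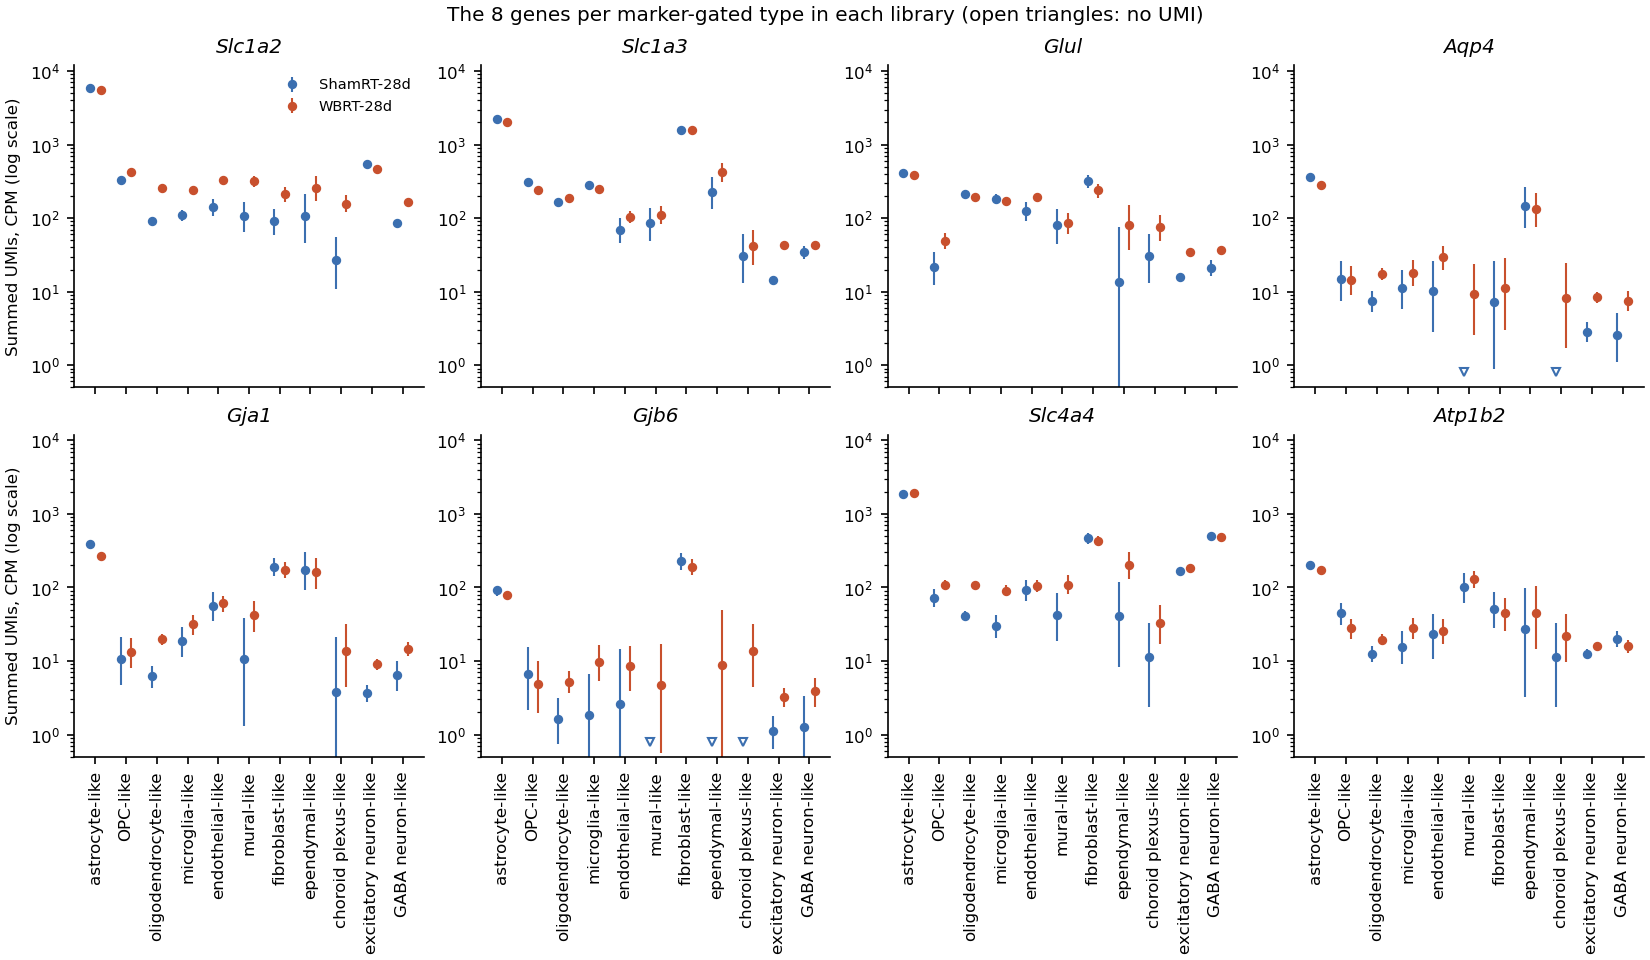
CPM (log scale) of each gene in the summed nuclei of each of the 11 types, with ShamRT-28d in blue, WBRT-28d in orange, exact 95% counting intervals as bars, and open triangles where no UMI was found. Astrocyte-like nuclei lie highest in every panel but that of Gjb6, where fibroblast-like nuclei reach 226 and 190 CPM.

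Slc1a2 encodes GLT-1, the main carrier of glutamate uptake in the adult forebrain. Its level was 5846 CPM (5736–5959) in the astrocyte-like nuclei of ShamRT-28d and 5528 CPM (5457–5600) in those of WBRT-28d. Excitatory neuron-like nuclei came next at 537 and 472 CPM, so that astrocyte-like nuclei lay 10.9-fold (10.6–11.2) and 11.7-fold (11.4–12.03) above them. A Slc1a2 UMI was found in 65.1% and 66.5% of excitatory neuron-like nuclei, at a median depth of 4412 and 3634 UMIs. In GABA neuron-like nuclei the level was only 84.5 and 167 CPM, and in OPC-like nuclei it was 329 and 430 CPM. Microglia-like nuclei, which should lack the gene, held 109 and 244 CPM, of which free RNA, if present as it is for the neuron genes, would supply 73.3% and 87.4%.

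Slc1a3 encodes GLAST, the glutamate carrier of Bergmann glia and radial glia as well as of other astrocytes. In astrocyte-like nuclei it stood at 2244 CPM (2175–2314) in ShamRT-28d and at 2059 CPM (2016–2103) in WBRT-28d. Fibroblast-like nuclei were not far below, at 1572 and 1589 CPM, and the astrocyte-like level exceeded theirs by 1.43-fold (1.29–1.58) and 1.30-fold (1.19–1.41). These fibroblast-like nuclei had a Slc1a2 level of 91.2 and 213 CPM, of which the free RNA estimate covers 109% and 75.7%, whereas it covers 2.02% and 3.76% of their Slc1a3. Microglia-like nuclei held 279 and 248 CPM of Slc1a3, above the 9.17% and 32.0% of it that free RNA would supply. In neurons Slc1a3 was low, at 14.2 and 42.9 CPM in excitatory neuron-like nuclei.

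The 2 glutamate carriers therefore differed most in their balance. In astrocyte-like nuclei there were 2.61 Slc1a2 UMIs per Slc1a3 UMI (2.51–2.70) in ShamRT-28d and 2.69 (2.62–2.75) in WBRT-28d. In excitatory neuron-like nuclei the figure was 37.7 and 11, and in fibroblast-like nuclei 0.0580 and 0.134. Free RNA, where present, carries the ratio of the whole library, which was 3.13 and 2.69, into every type.

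Glul encodes the enzyme that turns glutamate into glutamine. It stood at 415 CPM (386–446) in ShamRT-28d and 384 CPM (365–403) in WBRT-28d, and astrocyte-like nuclei held 24.9% and 29.2% of its UMIs over all kept nuclei, the lowest such share of the 8 genes. Fibroblast-like nuclei reached 317 and 238 CPM, oligodendrocyte-like nuclei 212 and 197 CPM, and microglia-like nuclei 182 and 171 CPM. Neurons were far lower, with 15.8 and 34.5 CPM in excitatory neuron-like nuclei. By that share Glul was the gene least confined to astrocyte-like nuclei.

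Aqp4, the water channel of the endfeet, stood at 361 CPM (334–389) in the astrocyte-like nuclei from ShamRT-28d and 279 CPM (263–295) in those from WBRT-28d. Astrocyte-like nuclei held 73.0% and 63.2% of all its UMIs, the highest share of the 8 genes in both libraries. Ependymal-like nuclei, of which there were only 27 and 40, came next at 148 and 134 CPM. In each of the other 9 types the level was at most 29.4 CPM.

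Gja1 and Gjb6 encode connexin 43 and connexin 30, the proteins of astrocytic gap junctions. Gja1 had the lowest ratio between the libraries and Gjb6 an order over types unlike that of the other genes, so the sequences just before their annotated starts are shown. Promoter windows of 250 bases, 5′ to 3′, were read from RefSeq (GRCm38.p6), which matched 6 of the 8 genes. Capitals mark a match to TGACTCA, the AP-1 element, on either strand.
Gja1 (chr10:56377050-56377299, plus strand): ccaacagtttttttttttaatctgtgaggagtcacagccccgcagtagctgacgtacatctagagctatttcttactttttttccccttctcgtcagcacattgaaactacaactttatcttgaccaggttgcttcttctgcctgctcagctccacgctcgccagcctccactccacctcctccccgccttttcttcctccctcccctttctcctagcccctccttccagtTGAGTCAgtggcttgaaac
Gjb6 (chr14:57133612-57133861, minus strand): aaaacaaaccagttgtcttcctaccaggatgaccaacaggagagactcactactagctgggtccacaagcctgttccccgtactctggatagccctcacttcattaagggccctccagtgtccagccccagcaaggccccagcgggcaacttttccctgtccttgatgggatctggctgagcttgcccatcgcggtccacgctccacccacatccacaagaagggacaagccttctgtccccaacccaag
The Gja1 window held 1 such match near its end, and the Gjb6 window held none of the 5 motifs searched on both strands. Of 32851 promoter windows of the same length, 4.46% held TGACTCA, 7.02% TTCNNNGAA, 33.8% CCAAT, 12.4% TATAAA and 32.7% GGGCGG. The windows were 50% and 56.8% G and C, against a median of 52.4%, and neither counts as a site without binding data.

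In astrocyte-like nuclei Gja1 stood at 395 CPM (367–425) in ShamRT-28d and 269 CPM (254–285) in WBRT-28d. Fibroblast-like nuclei reached 190 and 173 CPM and ependymal-like nuclei 175 and 160 CPM. Gjb6 stood at 91.1 CPM (77.8–106) and 78.4 CPM (70.2–87.4). In fibroblast-like nuclei it was higher, at 226 CPM (173–290) and 190 CPM (148–241), so that the astrocyte-like level was 0.403 (0.299–0.549) and 0.412 (0.317–0.544) times theirs. A Gjb6 UMI was found in 40.6% of 106 and 32.6% of 138 fibroblast-like nuclei, and free RNA would supply 0.760% and 1.65% of the level there. Astrocyte-like nuclei held 4.33 Gja1 UMIs per Gjb6 UMI (3.65–5.16) in ShamRT-28d and 3.43 (3.03–3.89) in WBRT-28d, and fibroblast-like nuclei 0.839 (0.569–1.23) and 0.912 (0.636–1.31). The connexin balance was thus different in these types in either library.

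Slc4a4 encodes NBCe1, which moves bicarbonate together with sodium. Astrocyte-like nuclei held 1854 CPM (1792–1918) in ShamRT-28d and 1899 CPM (1857–1941) in WBRT-28d. GABA neuron-like nuclei came next at 502 and 479 CPM, 3.69-fold (3.48–3.92) and 3.96-fold (3.79–4.14) lower, and fibroblast-like nuclei were close to them at 471 and 428 CPM. Excitatory neuron-like nuclei held 168 and 186 CPM. In microglia-like nuclei the free RNA estimate equals 128% and 112% of the 29.6 and 90.7 CPM measured.

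Atp1b2 encodes the beta subunit of the Na,K-ATPase that is typical of glia. It stood at 204 CPM (184–226) in ShamRT-28d and 174 CPM (161–187) in WBRT-28d. Mural-like nuclei, pericytes and smooth muscle by their markers, were next at 102 and 131 CPM, and the astrocyte-like level was 2.01 (1.27–3.37) and 1.33 (1.01–1.78) times theirs. All other types were at or below 51.1 CPM.

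Detection per nucleus followed these levels. A Slc1a2 UMI was found in 97.1% (95.6–98.3) of astrocyte-like nuclei in ShamRT-28d and 97.5% (96.5–98.3) in WBRT-28d, against 16.1% and 35.0% of microglia-like nuclei, whose median depth was 1674 and 1882.5 UMIs. Slc1a3 was found in 89.8% and 91.5% of astrocyte-like nuclei, and in 30.9% and 33.3% of microglia-like nuclei. Glul was found in 55.6% and 59.3%, with 27.8% and 27.5% in microglia-like nuclei. The carriers for glutamate were hence seen in most astrocyte-like nuclei, and the enzyme in fewer. To compare the libraries at 1 depth, each nucleus was thinned to 1000 UMIs, which left out 23 of the 666 nuclei of ShamRT-28d and 0 of the 1369 of WBRT-28d. At that depth Slc1a2 was expected in 93.9% and 93.4% of astrocyte-like nuclei, Slc1a3 in 78.1% and 77.8%, and Glul in 31.8% and 31.3%.

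Aqp4 was found in 42.3% (38.6–46.2) of astrocyte-like nuclei in ShamRT-28d and 40.7% (38.1–43.3) in WBRT-28d, and in 24.8% and 21.2% after thinning. In microglia-like nuclei the unthinned shares were 1.54% and 3.31%. Gja1 was found in 55.4% (51.5–59.2) and 47.7% (45.0–50.4), and in 31.0% and 22.8% after thinning, against 3.43% and 6.20% of microglia-like nuclei unthinned. Of the 8 genes it had the largest gap in thinned share on the lower side in WBRT-28d. Slc4a4 differed in the other direction, with 78.5% (75.2–81.6) and 89.1% (87.3–90.7) unthinned and 66.4% and 74.0% thinned, and its microglia-like shares were 4.97% and 13.3%. Gjb6 was seen in 18.3% and 19.4%, or 7.74% and 7.63% thinned. Atp1b2 was seen in 37.1% and 37.9%, or 18.8% and 16.4% thinned. In microglia-like nuclei these were 0.343% and 1.87% for Gjb6, and 2.74% and 5.33% for Atp1b2.

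Next, the libraries were compared within astrocyte-like nuclei, which asks how these genes stood 28 days after whole-brain irradiation. Among the 8 genes, 7 had a lower level in WBRT-28d than in ShamRT-28d and 1, Slc4a4, a level that was about equal. The share of all genes with a lower level was not counted. A gene was counted as past the fold when its CPM was at least 25% higher in either library than in the other and it had at least 200 UMIs over both. By this rule 2 of the 8 genes, Gja1 and Aqp4, were lower in WBRT-28d and 0 were higher. Of the 5139 genes with enough UMIs, 27.7% were past the fold, 13.3% on the lower side and 14.5% on the higher side. The median log2 ratio of the 8 genes was -0.17, against -0.01 for all 5139 genes.

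Gja1 was lowest relative to ShamRT-28d, with a WBRT-28d to ShamRT-28d ratio of 0.682 (0.620–0.75). Each astrocyte-like nucleus held 1.07 Gja1 UMIs on average in ShamRT-28d and 0.822 in WBRT-28d. Aqp4 followed at a ratio of 0.772 (0.701–0.851), from 0.980 to 0.851 UMIs per nucleus. It lost its place past the fold in 5 of 12 alternative analyses, while Gja1 kept it in all 12 (0.479–0.753). Among those 5 were equal weights for nuclei (0.81) and a near copy of it limited to nuclei of at least 1000 UMIs (0.82).

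The other genes lay inside the fold. The glutamate carriers were a little lower in WBRT-28d, at 0.946 (0.924–0.968) for Slc1a2 and 0.918 (0.884–0.953) for Slc1a3. With the free RNA subtracted both ratios passed to the other side of 1, at 1.05 and 1.02. That step also multiplies the ratios of all genes by a shared factor above 1. Glul was at 0.925, with an interval that reached 1 (0.848–1.01). Gjb6 was at 0.861 (0.712–1.04) from 165 and 328 UMIs. Atp1b2 was at 0.849 (0.748–0.965), and Slc4a4 at 1.02 (0.983–1.07). Of the 8 intervals, 5 lay wholly below 1 and 0 wholly above it. The share of all genes with such intervals was not counted, and intervals narrow as UMIs increase.

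**Figure D2:**
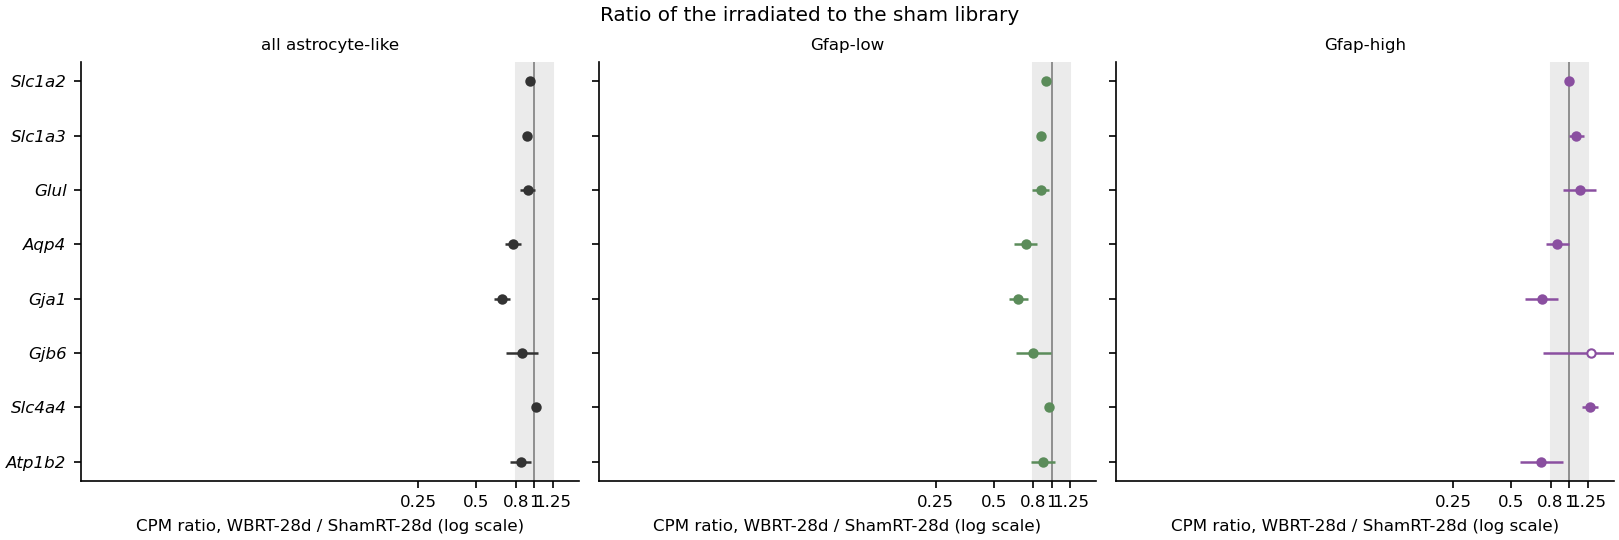
Ratio of WBRT-28d to ShamRT-28d CPM (log scale) of the 8 genes in all astrocyte-like, Gfap-low and Gfap-high nuclei, with exact 95% counting intervals; the grey band spans a difference of 25% and open points have fewer than 200 UMIs. Gja1 lies left of the band in the 3 panels, at 0.682, 0.671 and 0.720, and Slc4a4 right of it in Gfap-high nuclei only, at 1.28.

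The ratio also went with gene length over all genes. Among the 1711 shortest genes (up to 38.6 kb) the median log2 ratio was -0.08, and 18.2% were past the fold on the lower side and 8.88% on the higher. Among the 1711 longest (from 98.8 kb) it was 0.10, with 9.41% lower and 27.0% higher. Glul, Aqp4, Gja1, Gjb6 and Atp1b2 belong to the shortest genes, Slc1a3 to the 1710 in between, and Slc1a2 and Slc4a4 to the longest. The same 5 short genes lie among the 1711 with the highest exonic share, whose median log2 ratio was -0.07. Gja1 at a log2 ratio of -0.55 and Aqp4 at -0.37 lay below the median of the shortest genes, and Glul at -0.11 lay near it. The part of gene length in these differences was not tested.

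**Figure D3:**
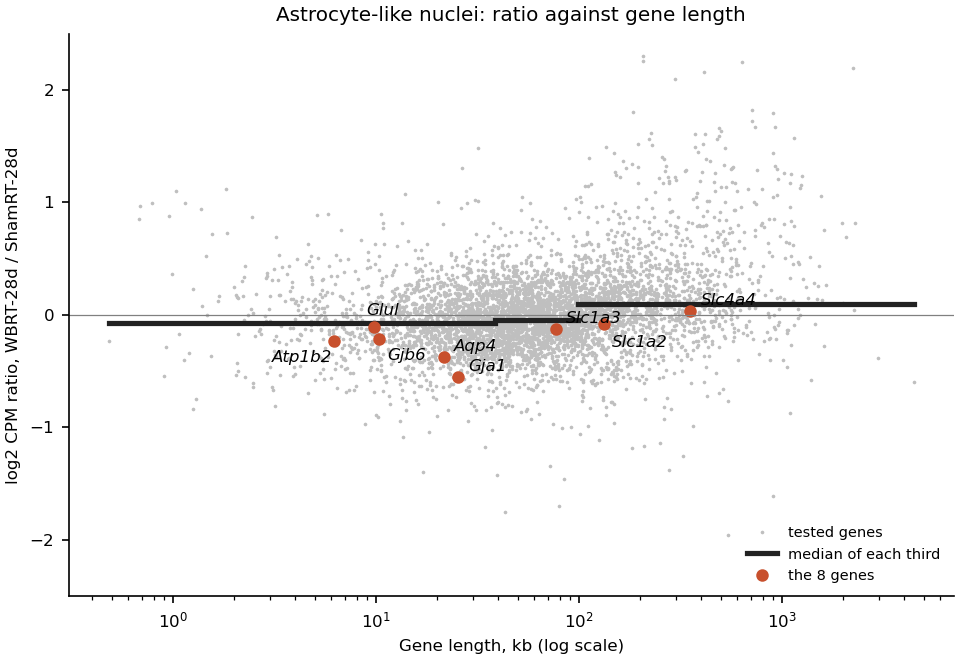
Log2 ratio of WBRT-28d to ShamRT-28d CPM in astrocyte-like nuclei against gene length in kb (log scale), with tested genes in grey, the 8 genes in orange and black lines at the medians of the 1711 shortest, 1710 middle and 1711 longest genes; 4 genes lie outside the plotted range. The black line goes from -0.08 for the shortest genes to 0.10 for the longest, and Gja1 lies farthest below it of the 8 genes.

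In oligodendrocyte-like and microglia-like nuclei most of the 8 genes were higher in WBRT-28d, as were the neuron genes used to estimate free RNA. Of all genes with at least 200 UMIs, 21.3% were past the fold on the higher and 14.6% on the lower side in oligodendrocyte-like nuclei. In microglia-like nuclei the shares were 15.3% and 14.1%. In fibroblast-like nuclei Glul, Gja1, Gjb6, Slc4a4 and Atp1b2 were lower in WBRT-28d, and in excitatory neuron-like nuclei Slc1a2 was. Slc1a2 was at a WBRT-28d to ShamRT-28d ratio of 2.82 (2.55–3.12) in oligodendrocyte-like and 2.23 (1.81–2.78) in microglia-like nuclei. Gja1 was at 3.22 (2.20–4.82) and Aqp4 at 2.35 (1.64–3.43) in oligodendrocyte-like nuclei, with levels of at most 19.9 CPM. The neuron genes stood there at 12.9% of their library level in ShamRT-28d and 37.5% in WBRT-28d, and in microglia-like nuclei at 13.6% and 28.7%. For Slc1a3 and Glul, which oligodendrocyte-like and microglia-like nuclei held well above the estimate of free RNA in ShamRT-28d, the ratios were nearer to 1, between 0.888 and 1.15. The part of free RNA in these differences was not tested. Within astrocyte-like nuclei the estimate covered 0.892% to 2.61% of the level of the 8 genes in ShamRT-28d and 2.97% to 6.43% in WBRT-28d.

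Astrocyte-like nuclei were then divided by Gfap and 3 genes that accompany it, Myoc, Tnc and Thbs4. Nuclei with at least 2 UMIs of these 4 genes were called Gfap-high, which gave 150 nuclei (22.5%, 19.4–25.9) in ShamRT-28d and 277 (20.2%, 18.1–22.5) in WBRT-28d. The class is a range of a count and not a cell type: 20.9% and 20.7% of the astrocyte-like nuclei lay near the limit, with 1 or 2 of these UMIs. Median depth was 2528.5 and 2913 UMIs in Gfap-high nuclei and 2324.5 and 2544.5 in Gfap-low nuclei.

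Within each library, Aqp4 was the gene that set Gfap-high nuclei apart. Its level was 749 CPM (669–836) in Gfap-high and 242 CPM (217–270) in Gfap-low nuclei of ShamRT-28d, a ratio of 3.09 (2.64–3.62). In WBRT-28d it was 648 CPM (596–703) and 177 CPM (163–192), a ratio of 3.65 (3.25–4.11). A UMI of Aqp4 was found in 56.7% of Gfap-high and 38.2% of Gfap-low nuclei in ShamRT-28d, and in 64.6% and 34.6% in WBRT-28d, and thinning left 38.2% against 20.8% and 39.7% against 16.5%. Over 15 alternative analyses the ratio ranged from 2.61 to 4.58 in ShamRT-28d and from 2.56 to 6.67 in WBRT-28d.

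Gjb6 went the other way. It stood at 40.2 CPM (23.4–64.3) in Gfap-high and 107 CPM (90.2–125) in Gfap-low nuclei of ShamRT-28d, a ratio of 0.376 (0.213–0.623) that rests on 17 and 148 UMIs. In WBRT-28d, with 47 and 281 UMIs, it was 52.2 and 85.6 CPM, a ratio of 0.610 (0.438–0.833). The other connexin, Gja1, was nearly level, at 1.02 (0.855–1.22) and 1.10 (0.95–1.26). Accordingly there were 10.0 Gja1 UMIs per Gjb6 UMI (6.06–17.6) in Gfap-high and 3.68 (3.07–4.45) in Gfap-low nuclei of ShamRT-28d, and 5.53 (4.04–7.72) and 3.08 (2.69–3.54) in those of WBRT-28d.

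Of the glutamate genes, Slc1a2 was nearly equal in both classes, at a Gfap-high to Gfap-low ratio of 0.964 (0.921–1.01) in ShamRT-28d and 1.04 (1.01–1.07) in WBRT-28d. Slc1a3 was lower in Gfap-high nuclei, at 0.681 (0.627–0.739) and 0.840 (0.796–0.887). Glul was at 0.777 (0.644–0.934) in ShamRT-28d and 1.01 (0.891–1.13) in WBRT-28d. Slc4a4 resembled Slc1a3, at 0.684 (0.625–0.749) and 0.901 (0.852–0.953). Atp1b2 was at 1.23 (0.969–1.55) and 0.982 (0.817–1.18).

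**Figure D4:**
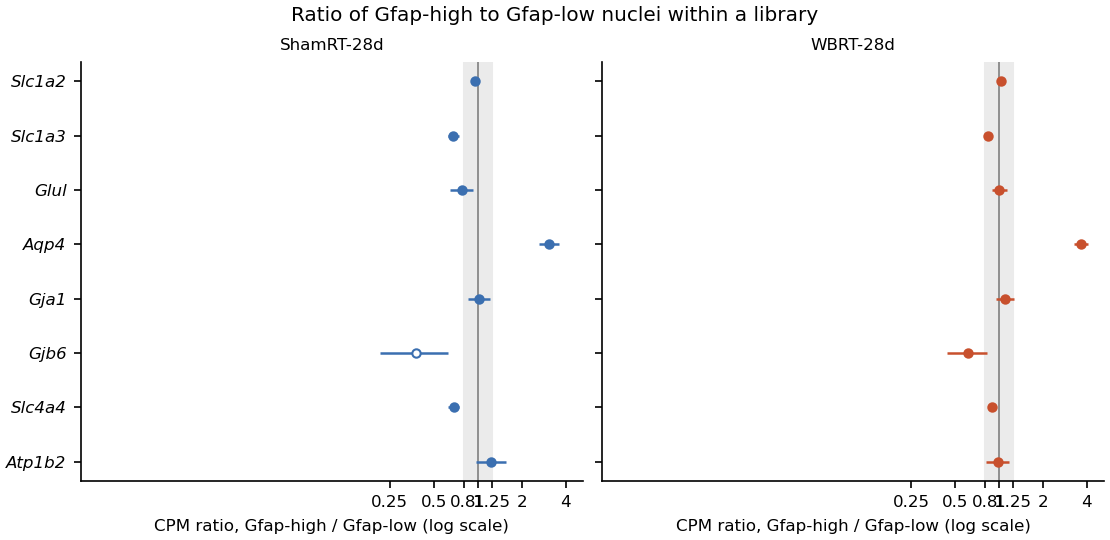
Ratio of Gfap-high to Gfap-low CPM (log scale) of the 8 genes within ShamRT-28d and within WBRT-28d, with exact 95% counting intervals; the grey band spans a difference of 25% and the open point has fewer than 200 UMIs. Aqp4 lies far right of the band in both panels, at 3.09 and 3.65, and Gjb6 left of it, at 0.376 and 0.610.

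Past the fold with at least 200 UMIs in the library were 1 gene higher (Aqp4) and 3 lower (Slc1a3, Glul and Slc4a4) of 7 in ShamRT-28d, where 16.7% of 1687 genes were higher and 21.8% lower (38.5% in all). Over 15 alternative analyses Glul lost this place in 5, among them a stricter astrocyte gate (0.82) and kept doublets (0.83), and its ratio ranged from 0.106 in nuclei with markers of regions outside the forebrain, of which 18 were Gfap-high, to 0.886 with Gfap alone as the criterion. Slc4a4 lost it in 2, with Gfap alone (0.896) and without Thbs4 in the criterion (0.804). In WBRT-28d 1 gene was past the fold on the higher side (Aqp4) and 1 on the lower (Gjb6) of 8, where 14.7% of 3832 genes were higher and 13.7% lower (28.4% in all). The median log2 ratio of the 8 genes was -0.21 in ShamRT-28d and -0.01 in WBRT-28d, against -0.01 and 0.03 over all genes. Summed, the astrocyte markers used for the gate were also lower in Gfap-high nuclei. They stood at 13174 CPM against 21228 CPM in ShamRT-28d and 16690 against 21663 CPM in WBRT-28d. Of these sums, Gpc5 alone supplied 4387 against 11164 CPM in ShamRT-28d and 7905 against 12707 CPM in WBRT-28d. Not every marker was lower: Bmpr1b was higher in Gfap-high nuclei, at 976 against 751 CPM and 906 against 576 CPM.

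The contrast of irradiated with sham nuclei was repeated in each class. In Gfap-low nuclei Gja1 was at 264 and 393 CPM in WBRT-28d and ShamRT-28d, a ratio of 0.671 (0.603–0.749), and Aqp4 was at a ratio of 0.732 (0.639–0.840). These 2 of the 8 genes were past the fold on the lower side, where 13.2% of 4165 genes were, and 0 on the higher side, where 15.6% were (28.8% in all). Gja1 kept this place in all 15 alternative analyses, and Aqp4 lost it in 3, at 0.867 with Gfap alone as the criterion, 0.804 with free RNA subtracted and 0.801 with at least 5 UMIs of the criterion against 0. All 8 ratios were below 1, from 0.671 for Gja1 to 0.969 for Slc4a4. Their median log2 ratio was -0.19, against -0.005 over all 4165 genes. The share of all genes with a ratio below 1 was not counted. Over the 15 alternative analyses Slc4a4 lay above 1 in 8 and Slc1a2 in 2, while the other genes stayed below 1.

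In Gfap-high nuclei Gja1 was lower by a like amount, at 0.720 (0.591–0.878). Atp1b2 stood at 0.717 (0.555–0.931), from 239 to 171 CPM. Slc4a4 was higher, at 1370 CPM (1261–1486) in ShamRT-28d and 1748 CPM (1663–1837) in WBRT-28d, a ratio of 1.28 (1.16–1.41). Aqp4 was at 0.865 (0.753–0.995), Slc1a2 at 1.001 (0.954–1.05), Slc1a3 at 1.08 (0.992–1.19) and Glul at 1.13 (0.931–1.39). Gjb6, with 17 and 47 UMIs, was at 1.30 (0.733–2.42). Of the 7 genes with enough UMIs 1 was past the fold on the higher side and 2 on the lower, where 24.2% and 12.8% of 1192 genes were (37% in all). Slc4a4 passed the fold in 7 of 15 alternative analyses, and with Gfap alone as the criterion it was at 1.13.

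The genes of the Gfap criterion differed between the libraries themselves. In the Gfap-high nuclei there were 152 Thbs4 UMIs in ShamRT-28d and 104 in WBRT-28d, although the latter had more nuclei, while Tnc had 156 and 472 UMIs and Myoc 162 and 447. Without Thbs4 in the criterion the ratio of Slc4a4 was 1.16. Whether the make-up of the Gfap-high class has a part in the Slc4a4 difference was not tested further.

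Astrocytes of the telencephalon and of other regions differ in their transcripts, and whole brains hold both. Nuclei with a UMI of Lhx2, Emx2 or Mfge8 and none of Agt, Itih3, Irx5, Irx3, Gdf10 or Sparc were called forebrain-marked, and nuclei with the reverse pattern outside-marked. A single UMI could set the name, and the sets are not particular to astrocytes. The outside set stood at 502 and 391 CPM in microglia-like nuclei of ShamRT-28d and WBRT-28d, above the 207 and 230 CPM in astrocyte-like nuclei. The forebrain set stood at 209 and 177 CPM in mural-like and 291 and 225 CPM in astrocyte-like nuclei. This division was added after the data had been seen. It gave 216 forebrain-marked nuclei in ShamRT-28d (32.4% of the astrocyte-like) and 384 in WBRT-28d (28.05%), and 108 (16.2%) and 288 (21.04%) outside-marked ones. Both kinds of UMI were found in 80 (12.01%) and 214 nuclei (15.6%), while 39.3% and 35.3% had neither kind of UMI.

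Slc1a2 and Slc4a4 showed opposite patterns. Slc1a2 stood at 7099.9 CPM in forebrain-marked and 3627 CPM in outside-marked nuclei of ShamRT-28d, 1.96-fold higher (1.83–2.10), and at 6637 and 4206 CPM in WBRT-28d, 1.58-fold higher (1.52–1.64). Slc4a4 stood at 1573 CPM in forebrain-marked and 2830.2 CPM in outside-marked nuclei of ShamRT-28d, a ratio of 0.556 (0.506–0.611), and at 1723 and 2273 CPM in WBRT-28d, a ratio of 0.758 (0.713–0.805). Slc1a3 was higher in forebrain-marked nuclei by 1.22-fold (1.11–1.34) and 1.47-fold (1.38–1.56). Aqp4 was lower there, at 0.735 (0.582–0.931) and 0.704 (0.596–0.832). For Gja1 and Gjb6 the intervals of this ratio included 1 in both libraries.

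The lower level of Gja1 in WBRT-28d was past the fold in 3 of these 4 groups, at a ratio of 0.634 (0.537–0.748) in forebrain-marked, 0.479 (0.386–0.596) in outside-marked and 0.753 (0.631–0.901) in unmarked nuclei. In nuclei with both kinds of marker it stood at 363 CPM in ShamRT-28d and 341 CPM in WBRT-28d, a ratio of 0.939 (0.743–1.19), inside the fold. For Aqp4 the ratios were 0.717 (0.596–0.863), 0.748 (0.602–0.935) and 0.767 (0.655–0.901), and 0.848 (0.645–1.12) in nuclei with both kinds. Slc1a2, in contrast, was at 0.935 (0.902–0.969) in forebrain-marked and at 1.16 (1.08–1.24) in outside-marked nuclei. Slc4a4 showed the reverse, at 1.095 (1.02–1.18) and 0.803 (0.739–0.873). The other glutamate carrier, Slc1a3, was lower in both, at 0.930 (0.876–0.988) and 0.771 (0.700–0.851). In outside-marked nuclei Gjb6 was at 0.648 (0.430–0.995), Glul at 0.795 (0.634–1.01) and Atp1b2 at 0.845 (0.639–1.13). In forebrain-marked nuclei these 3 genes were at 0.910, 0.954 and 0.880. The outside-marked group mixes several regions, and whether both libraries sampled them alike was not tested.

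**Figure D5:**
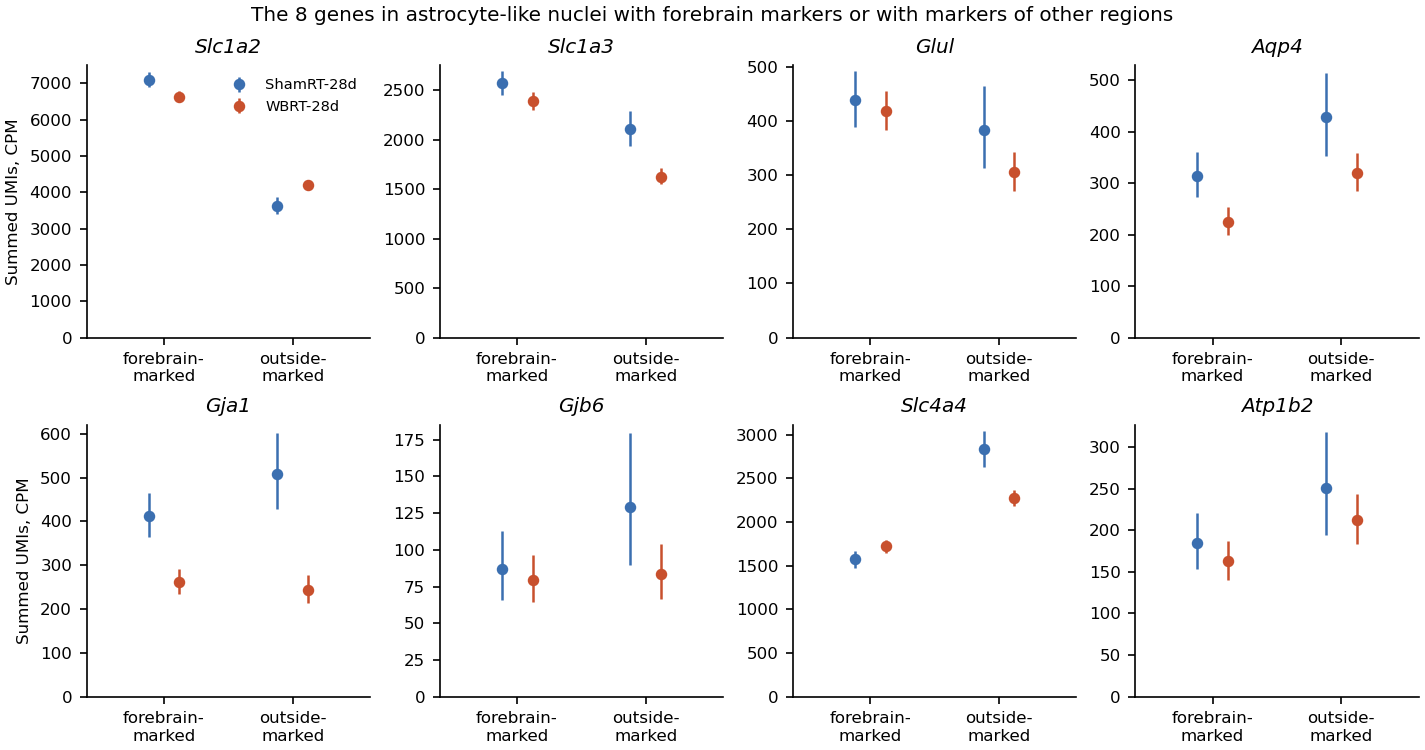
CPM of the 8 genes in forebrain-marked and outside-marked astrocyte-like nuclei of ShamRT-28d (blue) and WBRT-28d (orange), with exact 95% counting intervals and each axis starting at 0. Slc1a2 goes from 7099.9 CPM down to 3627 CPM in ShamRT-28d, Slc4a4 from 1573 up to 2830.2 CPM, and Gja1 is lower in WBRT-28d on both sides.

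Further genes of the same pathways were taken from 4 lists. Of the list for glutamate, glutamine and GABA, 18 of 20 genes had at least 50 UMIs in astrocyte-like nuclei, 2 of them past the fold on the higher side in WBRT-28d and 3 on the lower. Of the 20 genes for potassium, sodium, bicarbonate and chloride 1 was higher and 4 were lower. Of 10 measured genes of the water and endfoot complex 0 were higher and 3 lower, and of 3 measured for gap junctions 1 was higher and 0 lower. Over all 10227 genes with at least 50 UMIs 17.6% were higher and 20% lower (37.6% in all). The median log2 ratios of the lists were -0.04, -0.09, -0.27 and -0.03, against -0.03 over all these genes.

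By the rule for naming, the metabotropic glutamate receptor Grm3 and glutamate dehydrogenase (Glud1) had the most UMIs of the glutamate list and stood at 0.857 (0.826–0.890) and 1.01 (0.924–1.097). The receptor Grm5 had the highest ratio, 1.49 (1.35–1.64). The amino acid transporter Slc38a1 had the lowest, at 210.5 CPM in ShamRT-28d and 82.7 CPM in WBRT-28d, a ratio of 0.393 (0.339–0.456). Of the ion list, the sodium calcium exchanger Slc8a1 was at 1.246 (1.10–1.42), just inside the fold, and the lowest ratio was 0.524 (0.334–0.828) for Slc4a2 from 38 and 46 UMIs. Of the endfoot list, Dtna and Dmd of the dystrophin complex, which anchors Aqp4, were at 0.880 (0.847–0.915) and 1.03 (0.978–1.09), Sntb1 was highest at 1.06 (0.882–1.27) and Agrn lowest at 0.716 (0.585–0.879). Of the gap junction list, the scaffold protein Tjp1, which binds connexins, was at 0.981 (0.917–1.05), and Gjc3 was highest at 1.48 (1.03–2.17).

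Between the Gfap classes several of these genes stood with Aqp4 or with Slc1a3. Slc38a1 was higher in Gfap-high than in Gfap-low nuclei, at 4.43 (3.6–5.46) in ShamRT-28d and 5.43 (4.36–6.78) in WBRT-28d. Grm3 was at 0.516 (0.471–0.564) and 0.716 (0.675–0.759), and Grm5 at 0.489 (0.374–0.631) and 0.764 (0.675–0.863). Past the fold with at least 200 UMIs were 3 glutamate genes higher and 4 lower of 10 in ShamRT-28d, and 3 higher and 5 lower of 13 in WBRT-28d. Of the ion list 3 were higher and 2 lower of 6 in ShamRT-28d, and 3 higher and 1 lower of 12 in WBRT-28d, with the potassium channel Kcnj10 lower in both, at 0.487 (0.320–0.716) and 0.542 (0.401–0.721). Of the endfoot list 3 of 7 and 3 of 9 were higher and 0 lower, among them Mlc1, a membrane protein of endfeet, at 1.5 (1.12–1.98) and 1.33 (1.06–1.67). Kcnj10 and Mlc1 are outside the naming rule and were chosen after their values had been seen. Both measured gap junction genes lay inside the fold in either library. Over all genes the shares were 16.7% higher and 21.8% lower for ShamRT-28d, and 14.7% and 13.7% for WBRT-28d.

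Finally, the genes with the pattern most like each of the 8 over the 11 types were sought among 11839 genes with at least 500 UMIs, by Pearson's r of the log2 CPM after adding 1, averaged over both libraries. These are descriptions over 11 points that share the libraries and any free RNA in them. Slc1a2 was most like Rorb (0.924), Cldn10 (0.922) and Slc6a11 (0.922). Slc1a3 was most like Apoe (0.940) and C4b (0.928). Glul was most like Tsc22d3 (0.903). Aqp4 was most like Slc25a18 (0.947), Pla2g7 (0.927) and Gfap (0.908). Gja1 was most like Gstm1 (0.962) and Mt1 (0.948), and Gjb6 was most like Fzd2 (0.933). Slc4a4 was most like Csdc2 (0.918) and Atp1b2 like Mfge8 (0.949). Cldn10, Slc25a18 and Pla2g7 were among the markers used for the astrocyte gate, and none of the 8 genes was among the 3 nearest of another.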

How the data were processed

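The authors aligned the reads of both 10x Chromium libraries to mm10 with Cell Ranger 5.0.0, using a pre-mRNA reference that takes in introns, and deposited raw UMI counts per gene and barcode. Seurat 3.0 and R 3.5.3 are listed beside it in the submitters' processing notes. From these counts, barcodes were dropped below 500 genes or above 5% of UMIs from mitochondria. Scrublet (scanpy 1.11.5) was run per library, and the 986 and 1950 highest scores, the number expected from 0.8% per 1000 barcodes, were left out as doublets. A nucleus took a type when that type's markers had at least 50 UMIs per 10000 (20 for fibroblast-like and ependymal-like, 10 for neurons) and at least 3 markers were seen (2 for neurons). The level, as a multiple of that limit, also had to be 2 times that of any other non-neuron type that passed. Neuron types were called only where no other type passed, with the same margin between them. Neuron markers thus did not bar an astrocyte-like call. The gates left 30.9% and 31.0% of nuclei untyped. UMIs were summed per type and library, and CPM are relative to all UMIs of the type.

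Each condition has 1 library, so no test was made, and a difference of 25% with at least 200 UMIs was used as a description. For free RNA, the level of 8 neuron genes in a type, as a percentage of that in the whole library, was applied to the library CPM of each gene. Empty droplets were not examined. The percentage differed between non-neuron types, in WBRT-28d from 12.4% (choroid plexus-like) to 65.6% (ependymal-like). Named genes are the 8 genes and, per list, the 2 with the most UMIs and those with the highest and lowest ratio among genes with at least 50 UMIs, except that some genes are not reported here. The genes and lists were chosen with earlier results of these data known. Listed genes numbered 63, of which 2 were found by gene ID. Gene spans are from GENCODE M21 (GRCm38). The calculation of intervals and ratios was checked on simulated Poisson counts. These hold no spread between nuclei or mice, so the check says nothing about that spread. The alternatives varied scaling, weights of nuclei, filters, doublets, gates, the Gfap criterion, depth and free RNA. The work used Python 3.11.15 with scipy 1.17.1, numpy 2.4.6, matplotlib 3.10.9 and pandas 2.3.3.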

Additional observations from a re-analysis of the deposited data

How the results depend on the processing

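No paired analysis was possible because each condition has 1 library, and for the same reason no replicate could be left out. Over 15 alternatives, 444 of 576 ratios of the 8 genes stayed within the counting interval of the value reported, 121 moved beyond it, and 11 whose reported interval excluded 1 went to the other side of 1. A further 50 ratios, of genes whose reported interval included 1, also lay on the other side of 1 (61 in all). The number of genes highest in astrocyte-like nuclei stayed at 7. The scaling by size factors (0.992, 0.996, 1.04, 0.991 and 1.02) and the removal of mitochondrial genes moved 0 of 40 values each.

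The median log2 ratio of WBRT-28d to ShamRT-28d was -0.41 with a looser astrocyte gate, -0.034 with free RNA subtracted and -0.35 in outside-marked nuclei, against -0.17 as reported. In Gfap-low nuclei it was -0.42 with the looser gate and -0.55 in outside-marked nuclei, against -0.19. In Gfap-high nuclei it was -0.21 with Gfap alone as the criterion and 0.40 in outside-marked nuclei, of which ShamRT-28d has 18, against 0.06. For Gfap-high against Gfap-low it was -0.63 in outside-marked nuclei of ShamRT-28d, against -0.21, and 0.17 with the looser gate and 0.28 in outside-marked nuclei of WBRT-28d, against -0.01.

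Of ratios of WBRT-28d to ShamRT-28d with an interval that excluded 1, those that went to the other side were, with free RNA subtracted, Slc1a2 (1.05 in all astrocyte-like, 1.04 in Gfap-low nuclei) and Slc1a3 (1.02), and, in outside-marked nuclei, Slc1a2 (1.16 in all, 1.06 in Gfap-low) and Aqp4 (1.27 in Gfap-high). For Gfap-high against Gfap-low in WBRT-28d they were Slc1a2 at 0.89 with Gfap alone, 0.90 in forebrain-marked nuclei and 0.95 with at least 5 UMIs against 0, Slc4a4 at 1.02 with the looser gate, and Slc1a3 at 1.098 in outside-marked nuclei. Subtraction of free RNA also divides by the share that is left. This multiplies every gene's WBRT-28d to ShamRT-28d ratio in a class by a shared factor above 1. The causes of these shifts were not tested.

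With minimums of 50 and 500 UMIs, the counts of genes past the fold were 3850 and 562 in all astrocyte-like (1426 as reported), 3638 and 433 in Gfap-low (1200) and 2186 and 136 in Gfap-high nuclei (441), and 2825 and 208 (650) and 3467 and 375 (1089) between the Gfap classes of ShamRT-28d and WBRT-28d, since fewer or more genes were counted. The regional groups, the automatic doublet thresholds, the Gfap criterion without Thbs4 and that of at least 5 UMIs against 0 were chosen after seeing the data. Depth limits Gjb6 most, which had 17 UMIs in Gfap-high nuclei of ShamRT-28d.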
